A study of Mus musculus with 16 samples.

Results

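Mtor, Rptor, Rictor, Tsc1, Tsc2, Rheb, Akt1 and Rps6kb1 encode regulators of the PI3K, AKT and mTOR pathway, which couples growth factors and nutrients to protein synthesis. They were taken by symbol from the rows of the deposited count table, and all 8 were found among its 20409 named genes. The cells were adult neural stem cells, cultured from dentate gyri of FVB/N males aged 8 to 10 weeks that were either wild type (WT) or Fmr1-/y littermates (KO), in which the gene for the RNA-binding protein FMRP is disrupted. Both genotypes were cultured with EGF and FGF2, each at 20 ng/ml, and then exposed for 10 min to 100 µg/ml cycloheximide, a drug that halts translation elongation, ahead of collection. Cytoplasmic RNA and ribosome-protected mRNA fragments (footprints, RPF) were sequenced from 1 lysate per culture, giving 4 libraries in each of 4 groups (WT RNA, KO RNA, WT footprints and KO footprints) from 8 cultures. Replicates were independently isolated cells, and the molecular identifiers of the footprint libraries were 5 nt long for replicates 1 and 2 but 8 nt long for the other two. Growth factors were present throughout in both genotypes, so a state without them was not measured.

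Growth factor receptors activate PI3K, whose lipid product recruits the kinase AKT to the membrane. AKT phosphorylates TSC2, the GTPase-activating member of the TSC1-TSC2 brake, and so releases the small GTPase RHEB, which switches on mTOR complex 1 (mTOR with RPTOR). That complex phosphorylates the S6 kinases and the eIF4E-binding proteins and promotes translation, above all of mRNAs that begin with a terminal oligopyrimidine (TOP) tract, while mTOR complex 2 (mTOR with RICTOR) phosphorylates AKT. Raised mTOR signalling has been described in brain tissue of Fmr1 knockout mice, and FMRP has been reported to bind mRNAs of this pathway. The counts report mRNA abundance and ribosome occupancy, not phosphorylation or kinase activity.

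The first bases of these transcripts are shown because the start of an mRNA is what defines a TOP message. Each window holds 15 bases before and 15 bases from the annotated start, read 5′ to 3′ on the transcribed strand of GRCm38.p6 (RefSeq), and capitals mark the run of C or T that begins at the first transcribed base. The first 3 lines are known TOP mRNAs whose annotated start begins with such a tract (Rps6 and Fau, whose products give ribosomal proteins, and the histone chaperone gene Nap1l1), and the last 3 are Mtor, Rheb and Rps6kb1.
Rps6 (chr4:86857353-86857382, minus strand): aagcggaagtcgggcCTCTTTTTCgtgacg
Nap1l1 (chr10:111473212-111473241, plus strand): ggcgggctctcgggtCTTTTTTagcgccat
Fau (chr19:6057932-6057961, plus strand): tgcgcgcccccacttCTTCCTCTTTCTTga
Mtor (chr4:148448567-148448596, plus strand): cccgccctccccaccTCCCTggcctagaag
Rheb (chr5:24842347-24842376, minus strand): gcgagcgagaggcagCCgcgcccgccgccg
Rps6kb1 (chr11:86544793-86544822, minus strand): cgcatgcgccggagcTgaacttgaggagcc

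A TOP-like start was counted where the first transcribed base was C and at least 5 bases in a row from it were C or T, on the transcribed strand alone. It was present in 0 of 9 start windows of the 8 genes (Akt1 has 2 annotated starts), in 3 of 9 windows of a list of TOP mRNAs made up mostly of translation factors, and in 823 of 32851 windows genome-wide (2.51%). Mtor opened with a pyrimidine run of 5, but its first base was T. The run was 2 bases in Rheb and 1 base in Rps6kb1, and the starts of Rptor, Rictor, Tsc1, Tsc2 and Akt1 opened with a purine. These are matches of letters at annotated starts, which may differ from the starts used in these cells. On the list of TOP mRNAs, the windows of Eef1a1 (first base T) and Eef2 (first base G) were among those without the match. A window without it can thus belong to a TOP mRNA.

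On the same assembly (1-based), Mtor spans chr4:148448582-148557685, Rptor chr11:119602905-119899591, Rictor chr15:6708349-6800401 and Tsc1 chr2:28640993-28691172. Tsc2 spans chr17:24595816-24632676, Rheb chr5:24802823-24842361, Akt1 chr12:112653821-112674884 and Rps6kb1 chr11:86498869-86544885. The start windows of Rictor, Tsc1, Tsc2 and Rps6kb1 lay inside these spans, not at their edge. The annotated spans of Mtor, Tsc2 and Rps6kb1 overlap those of Angptl7, Pkd1 and Rnft1, which have their own rows in the table. These spans include introns, and overlap of exons was not checked. Only reads in shared exons, if there are any, could not be told apart if strand was not used.

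Abundance between genes was compared on the deposited TPM, a per-length share of transcripts, which was rounded to whole numbers. In WT RNA, Akt1 stood highest at 294.8 TPM (range 265 to 315 over 4 libraries), followed by Rheb at 167.0 (124 to 215). Rptor (51.0, 45 to 58) and Tsc2 (48.8, 39 to 57) came next and overlapped each other, and both stood above Mtor in every WT library. The lowest 4 were Mtor (25.8, 16 to 34), Rps6kb1 (19, 9 to 35), Tsc1 (18.3, 11 to 29) and Rictor (7.0, 2 to 12), and each of these overlapped its neighbour. KO RNA gave the same order, from Akt1 at 287.3 to Rictor at 4.75 TPM. Rptor, of mTOR complex 1, exceeded Rictor, of mTOR complex 2, in TPM in all 16 libraries.

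Footprints put the genes in another order. Rheb led WT footprints at 232.3 TPM (191 to 330), with Akt1 at 39.3 (26 to 47) and Rps6kb1 at 18.5 (16 to 21), and these 3 did not overlap. Rptor (14), Tsc2 (13.5), Mtor (9.25), Tsc1 (5.50) and Rictor (5.25) followed, each overlapping the next. Footprints lie in the coding sequence, whereas these values were scaled by the whole transcript, so the order also carries the coding share of each transcript.

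Akt1, the AKT isoform most often linked to growth and survival, is the kinase at the top of the set. Library-scaled counts (CPM, with TMM scaling within an assay) in WT RNA were 316, 326, 442 and 456 in replicates 1 to 4, and in KO RNA 335, 274, 434 and 482. Its footprints were 65.9, 40.6, 73.6 and 66.3 CPM in WT and 59.5, 38.2, 70.7 and 67.7 CPM in KO. Replicate 2 gave the lowest footprint value in both genotypes, and WT and KO overlapped in both assays. The log2 fold change of KO over WT was -0.01 (SE 0.24) in RNA and -0.07 (SE 0.19) in footprints.

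Tsc1 stabilises the complex in which Tsc2 acts on RHEB. Tsc1 RNA was 95.9, 62.3, 47.4 and 45.6 CPM in WT and 70.0, 61.0, 37.9 and 43.4 CPM in KO. Tsc1 footprints were 28.1, 26.9, 18.2 and 14.4 CPM in WT against 19.3, 20.0, 13.6 and 15.6 CPM in KO. KO was the lower of the same-numbered pair in 4 of 4 pairs in RNA and in 3 of 4 in footprints, and the footprint values of WT replicates 3 and 4 lay inside the KO range. The footprint log2 fold change was -0.33 (SE 0.14, 95% interval -0.66 to 0.01), with an unadjusted p of 0.0538 and an adjusted p of 0.999 in edgeR. It was -0.48 (SE 0.23) with replicates 1 and 2 alone and -0.17 (SE 0.22) with replicates 3 and 4 alone. Tsc2 was even across libraries, at 231 to 299 CPM in WT RNA and 231 to 272 CPM in KO RNA. Its footprints ran from 63.3 to 100.7 CPM in WT and from 62.0 to 91.9 CPM in KO, with a log2 fold change of -0.09 (SE 0.14).

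Rheb, the GTPase that TSC2 inactivates, had a higher CPM in footprints than in RNA in every culture. Its RNA was 62.2, 52.9, 42.0 and 47.1 CPM in WT and 70.0, 51.2, 64.5 and 49.4 CPM in KO. The footprint values were 159.6, 110.6, 113.0 and 112.7 CPM in WT and 149.9, 96.7, 123.7 and 120.4 CPM in KO. Replicate 1 was the highest of its genotype in both assays, and the genotypes overlapped. KO over WT gave a log2 fold change of 0.20 (SE 0.22) in RNA and -0.01 (SE 0.18) in footprints.

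Mtor encodes the kinase shared by both complexes. Its RNA was 238, 239, 186 and 145 CPM in WT and 277, 229, 202 and 155 CPM in KO. Footprints on Mtor were 93.8, 100.1, 71.8 and 46.4 CPM in WT and 93.8, 119.3, 71.6 and 49.8 CPM in KO. Same-numbered WT and KO libraries lay closer to each other than replicate 1 lay to replicate 4 within a genotype. The log2 fold change was 0.09 in RNA (SE 0.25) and 0.09 in footprints (SE 0.18).

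Rptor, the scaffold that brings substrates to mTOR complex 1, was 179, 192, 199 and 274 CPM in WT RNA and 241, 198, 260 and 243 CPM in KO RNA. Its footprints were narrow, from 58.0 to 75.1 CPM in WT and from 60.9 to 79.4 CPM in KO (log2 fold change 0.09, SE 0.13). Rictor, the scaffold of mTOR complex 2, was far more variable, at 60.6, 47.6, 24.9 and 10.9 CPM in WT RNA and 27.9, 42.6, 19.01 and 13.4 CPM in KO RNA. Rictor footprints were 43.6, 38.7, 21.4 and 17.2 CPM in WT and 27.3, 33.5, 19.7 and 19.2 CPM in KO. The RNA log2 fold change of Rictor was -0.48 (SE 0.53, 95% interval -1.68 to 0.71). Single libraries moved it, to -0.11 without WT replicate 1 and to -0.84 without KO replicate 2, and it was -0.14 with replicates 3 and 4 alone.

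Rps6kb1, the S6 kinase that mTOR complex 1 phosphorylates, was 20.4, 42.2, 26.3 and 14.5 CPM in WT RNA and 23.7, 38.8, 17.9 and 19.5 CPM in KO RNA. Its footprints were steadier, at 25.3, 27.8, 35.8 and 37.5 CPM in WT and 34.3, 28.4, 30.5 and 34.4 CPM in KO. Replicate 2 was the highest RNA library in both genotypes but not the highest footprint library in either. The log2 fold change was -0.05 (SE 0.38) in RNA and 0.03 (SE 0.14) in footprints.

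**Figure D1:**
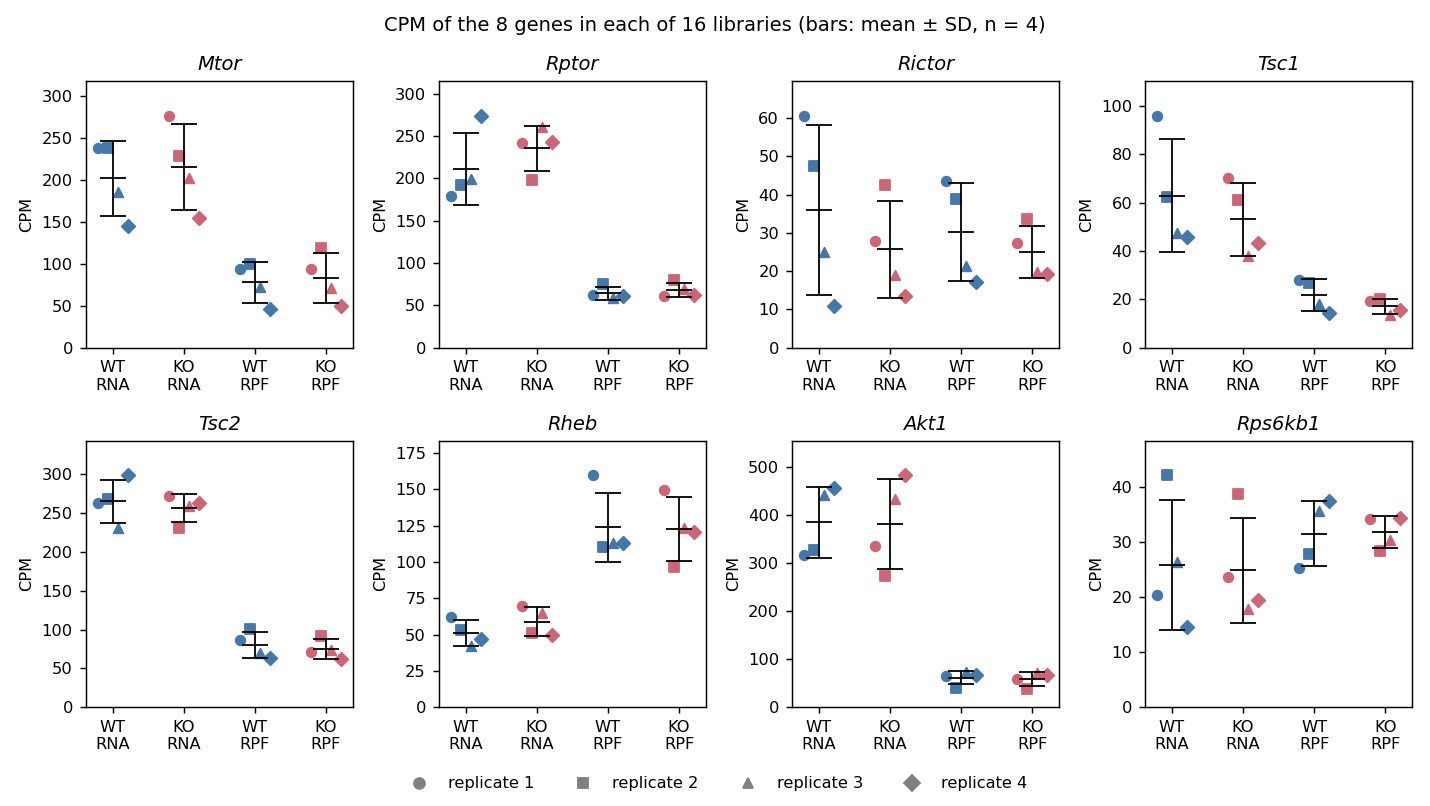
CPM of each of the 8 genes in all 16 libraries, with a panel per gene, groups on the horizontal axis, WT in blue, KO in red and a symbol per replicate; bars give mean ± SD (n = 4). WT and KO overlap in every panel, Rheb has higher footprint than RNA values, and Akt1 footprints (38.2 to 73.6 CPM) lie far below its RNA (274 to 482 CPM).

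The comparison of KO with WT asked whether loss of FMRP altered the mRNA or the ribosome occupancy of these regulators. With edgeR's quasi-likelihood test and Benjamini-Hochberg adjustment over all genes, 0 of 8 passed in RNA, where 0.00901% of all genes tested passed, and 0 of 8 passed in footprints, where 0.0349% did. At an unadjusted p under 0.05 the counts were again 0 of 8 in RNA (background 1.87%) and 0 of 8 in footprints (4.59%). DESeq2 and limma-voom also called 0 of 8 after adjustment in each assay, while Tsc1 footprints were under an unadjusted 0.05 with both. The ranges of WT and KO overlapped for all 8 genes, against 1.28% of all genes without overlap in RNA and 1.88% in footprints. With so few genes called over the whole table, 0 of 8 is near the background.

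The size of a change that the replicates leave possible differed by assay, but so did the models. Only the footprint model held a term, identifier length, that separates replicates 1 and 2 from 3 and 4. With such a term in the RNA model, the SE fell from 0.53 to 0.30 for Rictor and from 0.31 to 0.18 for Tsc1. Without it in the footprint model, the SE rose from 0.15 to 0.33 for Rictor and from 0.14 to 0.25 for Tsc1. In footprints the 95% intervals of the 8 genes lay within 0.634-fold to 1.43-fold of WT. In RNA they were wider, from 0.313-fold to 1.74-fold, and the lower limit belonged to Rictor. The median log2 fold change of the 8 genes was -0.03 in RNA and -0.04 in footprints, against 0.01 over all genes tested in each assay.

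Translational efficiency (TE), footprints relative to RNA, was tested as the interaction of assay and genotype over all 16 libraries. The log2 change of KO over WT ran from -0.20 (SE 0.28) for Rheb to 0.28 (SE 0.61) for Rictor, and Mtor was at 0.00 (SE 0.32). None of the 8 passed in edgeR, where 0% of 10863 genes did, and 0 of 8 were under an unadjusted p of 0.05 (0.129% of all genes). DESeq2 and limma-voom likewise called no gene of the table. WT and KO ratios overlapped for all 8, while 0.889% of genes showed no overlap. The intervals, from a model without pairing, were wide, from 0.493-fold to 3.01-fold over the 8 genes, both limits set by Rictor. With each culture as a block, which pairs its RNA and footprints, the TE value of Rictor was 0.16 (SE 0.22). The largest SE of the 8 was then 0.29, for Rps6kb1.

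**Figure D2:**
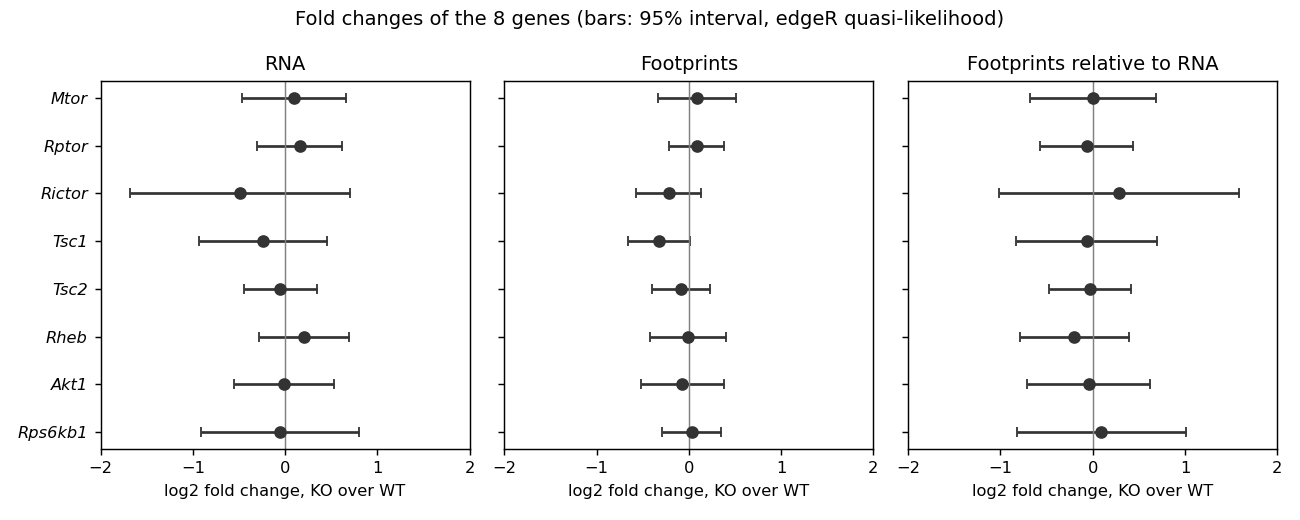
Log2 fold change of KO over WT for the 8 genes (points) with 95% intervals (bars) in RNA, in footprints and in footprints relative to RNA. All intervals include 0; the footprint interval of Tsc1 (-0.66 to 0.01) reaches furthest to one side, and those of Rictor are the widest in RNA and in the ratio.

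The ratio of footprints to RNA ranged widely over the 8 genes, though no test compared the genes with each other. Each ratio below sets footprints against RNA of the same gene, with both assays scaled to their own totals. It is thus relative to the other genes and carries any difference between the library methods. Footprints lie in the coding sequence whereas RNA reads can come from the whole transcript, so the ratio also carries the coding share of each transcript. Of the 8, 1 was higher and 5 were lower in footprints than in RNA after adjustment, where 27.4% of all genes were higher and 37.3% were lower. The median log2 ratio of the 8 was -1.47, against -0.17 over 10863 genes.

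Akt1 had the lowest ratio, with a log2 value of -2.67 (SE 0.18, adjusted p = 1.48e-09), at percentile 2.61 of all genes tested. Its 8 cultures ranged from -3.00 to -2.26, so the least extreme of them was below every culture of the other 7 genes. Rptor and Tsc2, a subunit of mTOR complex 1 and its upstream brake, were both at -1.75 (SE 0.12 each), at percentiles 9.90 and 9.94. Tsc1 was at -1.58 (SE 0.20) and Mtor at -1.37 (SE 0.21), with adjusted p-values of 3.7e-06 and 1.96e-05 in edgeR.

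Rheb was the 1 gene of the set that passed with a higher CPM in footprints, at a log2 ratio of 1.17 (SE 0.14, adjusted p = 1.27e-06 in edgeR, percentile 86.1). On the deposited TPM the difference was smaller, 0.40 on the log2(TPM + 1) scale (SE 0.16, adjusted p = 0.0404 in limma-trend). Its cultures were 1.36, 1.06, 1.43 and 1.26 in WT and 1.10, 0.92, 0.94 and 1.28 in KO. All 8 were above 0, and KO was the higher of the pair in 1 of 4 pairs.

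Rictor (-0.15, SE 0.33) and Rps6kb1 (0.32, SE 0.21) did not pass, with adjusted p-values of 0.707 and 0.182 in edgeR. Rps6kb1 spanned the widest range of the 8, at 0.31, -0.60, 0.44 and 1.37 in WT and 0.53, -0.45, 0.77 and 0.82 in KO. Replicate 2 was lowest in both genotypes, and those were the cultures with the most Rps6kb1 RNA (42.2 and 38.8 CPM). Rps6kb1 passed once WT replicate 2 was left out (adjusted p = 0.0371). Rictor lay near the middle of all genes (percentile 50.8), unlike Rptor, its counterpart in mTOR complex 1.

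**Figure D3:**
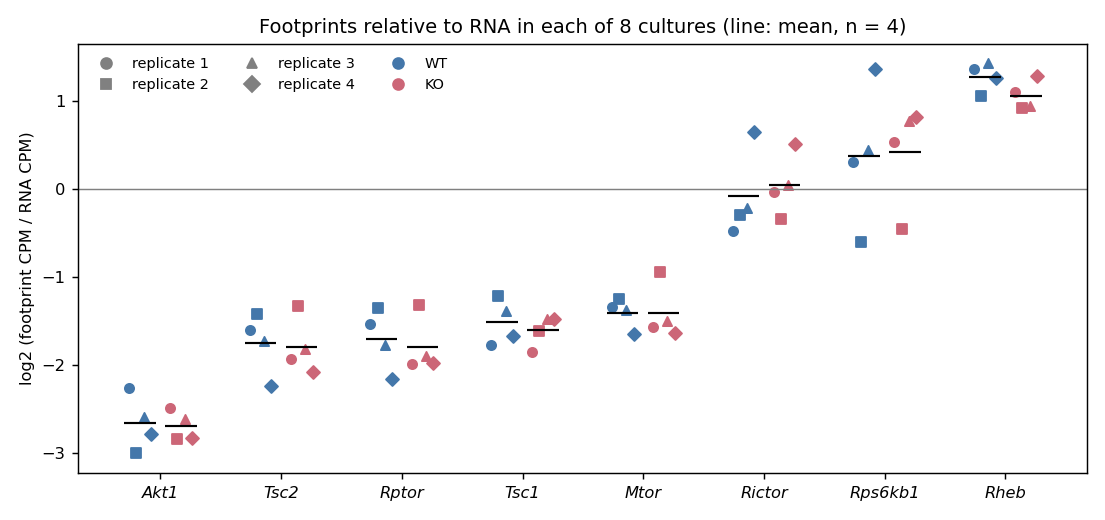
Log2 ratio of footprint CPM to RNA CPM for the 8 genes in each of 8 cultures, with WT in blue, KO in red, a symbol per replicate and a line at the mean of 4 cultures. Akt1 is lowest (-3.00 to -2.26), Rheb is above 0 in every culture, and replicate 2 lies at the bottom for Rps6kb1 in both genotypes.

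Several of the genes differed between replicates 1 and 2 and replicates 3 and 4 in both genotypes. Mtor RNA was 229 to 277 CPM in replicates 1 and 2 and 145 to 202 CPM in replicates 3 and 4, a log2 difference of -0.51. Rictor differed by -1.39 and Tsc1 by -0.73 in RNA, while Akt1 was higher in replicates 3 and 4 by 0.54. In footprints the differences were -0.76 for Mtor, -0.89 for Rictor, -0.61 for Tsc1 and 0.45 for Akt1. These 4 genes showed no overlap between the replicate sets in either assay. That is 4 of 8 in RNA, where 31.2% of all genes did so, and 4 of 8 in footprints, where 31.6% did. The split was thus common over the whole table and not particular to these genes. The labels name only the length of the footprint identifier as differing between these replicates, and the RNA libraries, for which no identifier is named, showed the difference too. What else differed between the cultures was not tested.

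**Figure D4:**
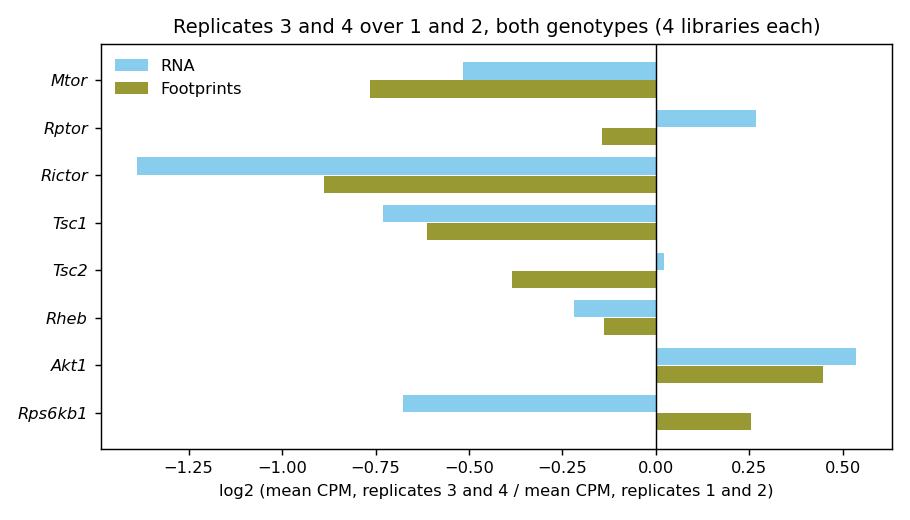
Log2 of mean CPM in replicates 3 and 4 over mean CPM in replicates 1 and 2, both genotypes together (4 libraries in each set), for RNA (light blue) and footprints (olive). Mtor, Rictor and Tsc1 are lower and Akt1 is higher in replicates 3 and 4 in both assays, while Rps6kb1, Rptor and Tsc2 have opposite signs in the 2 assays.

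Among genes with a mean of at least 20 CPM in both assays, the 5 whose pattern over the 16 libraries was nearest to that of Mtor were Arid1a, Ankfy1, Atp9b, Kdm1a and Ubr4. Likeness was the mean absolute difference of log2 CPM, centred on each gene's mean within an assay, and was 0.104 for Arid1a and 0.137 for Ubr4, against a median of 0.437 over 6105 genes. Within the set, Rptor and Tsc2 were nearest to each other (0.137) and Rictor and Akt1 were farthest apart (0.813). Tsc1 fell below 20 CPM in footprints and was left out of this measure. Libraries of a culture share a lysate, so the 16 points are not independent.

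A wider list of 121 genes placed the 8 in their pathway. Of these, 116 were tested in RNA, 117 in footprints and 116 in TE, and edgeR called 0 in each. At an unadjusted p under 0.05 there were 2 in RNA (Prkag2 and Rps6ka1), 5 in footprints (Fnip2, Rps6ka1, Foxo3 and Rragd among them) and 0 in TE. These counts were near the background, which was 1.87% of all genes in RNA and 4.59% in footprints. The median log2 fold change of the list was -0.02 in RNA and 0.00 in footprints, against 0.01 over all genes in each.

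Upstream, of the 19 tested genes of receptors, PI3K subunits and lipid phosphatases, 17 had negative RNA log2 fold changes (median -0.13) and 13 had negative footprint values (median -0.13). Over all genes, 5401 of 11097 were negative in RNA and 5594 of 11472 in footprints. Genes of a role were measured in the same libraries, so their signs are not independent. Footprints of the insulin receptor gene Insr were 39.1 to 74.1 CPM in WT and 32.1 to 46.5 CPM in KO (log2 fold change -0.37, SE 0.17), with KO the lower in 4 of 4 pairs. The adaptor gene Irs2 (-0.21, SE 0.34) and the regulatory subunit gene Pik3r1 (-0.20, SE 0.26) had wider errors. None passed the test.

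In the AKT branch, 9 of 13 genes had negative footprint log2 fold changes (median -0.09), against 5594 of 11472 over all genes, and 0 of 13 passed. Phlpp1, a phosphatase that acts on AKT, was at -0.49 (SE 0.30), and Gsk3b, a kinase that AKT inhibits, at -0.11 (SE 0.19).

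The mTOR complex partners were positive in 7 of 9 cases in footprints (5878 of 11472 over all genes), with a median of 0.16 and no call. Telo2, needed for assembly of mTOR and related kinases, was at 0.29 (SE 0.15) and higher in KO in 4 of 4 pairs, its partner Tti1 was at 0.06 (SE 0.17), and the mTOR complex 1 inhibitor Akt1s1 was at 0.04 (SE 0.11). Among genes of amino acid sensing, 17 of 28 were negative in footprints (median -0.04), against 5594 of 11472 over all genes. The GTPase gene Rragd was at -0.47 (SE 0.18), the leucine sensor family gene Sesn3 at -0.10 (SE 0.34) and the GATOR2 subunit gene Sec13 at 0.08 (SE 0.16).

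The gene of the list with the highest log2 fold change in both assays was Rps6ka1, which encodes RSK1, a kinase of the ERK pathway that phosphorylates TSC2. Its RNA was 11.6, 17.3, 23.4 and 18.9 CPM in WT and 47.3, 38.6, 53.6 and 29.5 CPM in KO. Rps6ka1 footprints were 8.93, 10.3, 9.94 and 6.48 CPM in WT and 21.2, 19.5, 24.6 and 11.7 CPM in KO. Every KO library was above every WT library in both assays. A lack of overlap in either direction was found for 2 of 116 pathway genes in RNA (with Prkag2) and for 2 of 117 in footprints (with the S6 kinase gene Rps6kb2). These counts were near the 1.28% and 1.88% of all genes without overlap in either direction. The log2 fold change was 1.25 (SE 0.29) in RNA and 1.11 (SE 0.26) in footprints, with adjusted p-values of 1 and 0.549 in edgeR. DESeq2 called it in both (adjusted p = 0.043 and 0.0238), whereas the edgeR fits with the replicate block gave 0.394 and 0.32. The TE value of Rps6ka1 was -0.12 (SE 0.39).

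At the other end, Ddit4l, which encodes an inhibitor of mTOR complex 1, had the lowest log2 fold change of the list, -1.97 in RNA and -2.39 in footprints. Its footprints ran from 0 to 27.7 CPM in WT and from 0.37 to 3.62 CPM in KO, so the genotypes overlapped, and a fold change of so variable a gene with a library at 0 has little precision. Its relative Ddit4 was at 0.16 (SE 0.31) in footprints. Prkag2, a regulatory subunit of the energy sensor AMPK, was 24.2 to 33.9 CPM in WT RNA and 39.1 to 51.4 CPM in KO RNA, and Cab39, a partner of the AMPK activator LKB1, was at -0.39 (SE 0.23) in footprints.

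Downstream, 11 of 16 substrates and translation factors were positive in footprints (median 0.06), against 5878 of 11472 over all genes. Rps6, the ribosomal protein that S6 kinases phosphorylate, was at 0.07 (SE 0.19), Eif4g1, the initiation scaffold, at 0.17 (SE 0.14) and Rps6kb2 at 0.33 (SE 0.20). The listed TOP mRNAs bear on mTOR output at the level of translation. Their TE values were positive in 13 of 16 cases with a median of 0.08, against 5768 of 10863 and a median of 0.01 over all genes, and 0 of 16 were called or under an unadjusted p of 0.05. Eef1a1 was at -0.03 (SE 0.20), Eef2 at 0.11 (SE 0.24) and Nap1l1 at 0.17 (SE 0.37), so each error exceeded its value.

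**Figure D5:**
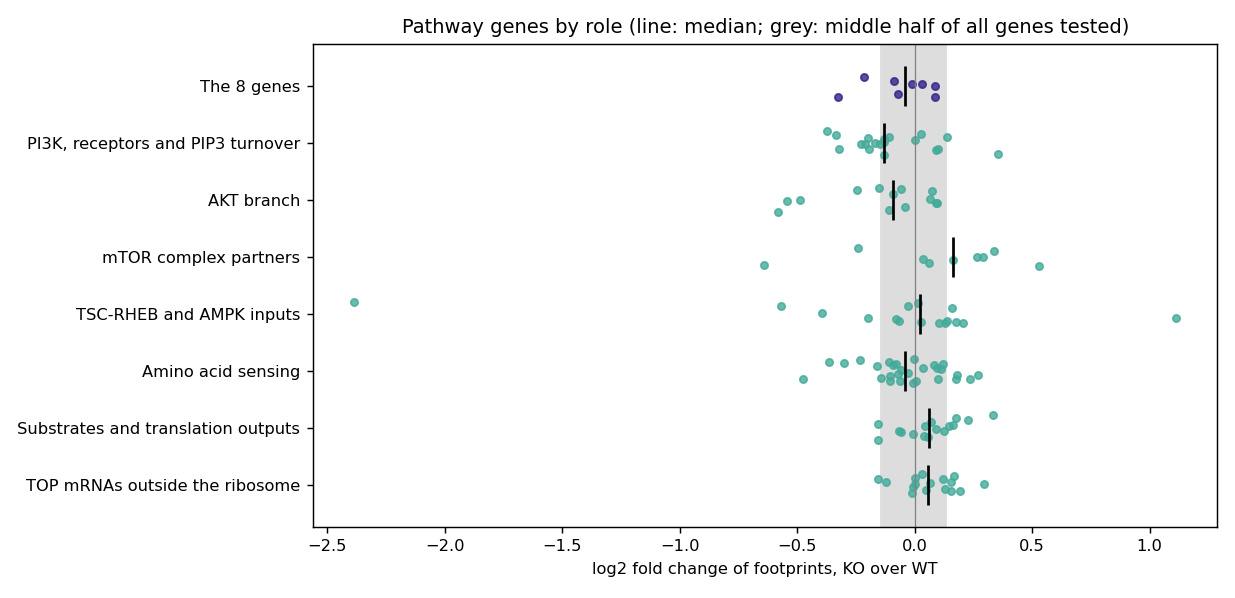
Log2 fold change of footprints, KO over WT, for the 8 genes (purple) and the pathway genes grouped by role (green); vertical lines are medians and the grey band holds the middle 50% of all genes tested. Medians run from -0.13 (PI3K group) to 0.16 (mTOR partners), Rps6ka1 (1.11) and Ddit4l (-2.39) lie farthest out, and no gene passed the edgeR test.

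Library totals were 5343042 to 6600023 counts in RNA and 9430732 to 17220236 in footprints. Fmr1 footprints were 128.9 to 149.6 CPM in WT and 12.7 to 27.0 CPM in KO, while Fmr1 RNA overlapped (27.4 to 106.7 against 3.35 to 30.8 CPM). The log2 fold change of Fmr1 was -2.93 (SE 0.22, adjusted p = 0.014 in edgeR) in footprints. It was -1.99 (SE 0.67) in RNA and -0.94 (SE 0.75) in TE and passed in neither. The RNA test thus did not call a change of that size in the disrupted gene. All 10 neural stem cell markers were present, at a summed 3758 to 4873 CPM in WT RNA and 3961 to 4471 CPM in KO RNA, and the 6 microglial markers summed to at most 1.30 CPM in any library, with Cx3cr1 and Aif1 at 0 throughout. Summed markers of dividing cells were 985 to 3223 CPM in WT footprints and 3487 to 4016 CPM in KO footprints, and 440 to 1607 against 1481 to 2436 CPM in RNA. Astrocyte markers spanned 345 to 2539 CPM in WT footprints and 279 to 1494 CPM in KO footprints. The part of these marker differences in the values of Rps6ka1, Tsc1 or any other gene was not tested, and in bulk cultures fewer cells of a type cannot be told apart from less RNA per cell.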

How the data were processed

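Per the submitters' processing notes, tools included TopHat2 2.0.9, Bowtie2 2.1.0 and RSEM 1.2.11 with the mm10 build; for the annotation, the collapse of identifiers and the use of strand, the step is not given in the sources used. The authors deposited a table of RSEM estimated counts, all of them whole numbers. The deposited TPM were also rounded to whole numbers and are handled as a score. RSEM divides reads that match several genes. Reads from any exons shared by overlapping genes (Angptl7 with Mtor, Pkd1 with Tsc2, Rnft1 with Rps6kb1) cannot be told apart without strand, and overlap of exons was not checked. The table had 20436 rows; 27 with a bare number for a symbol (0.244% to 0.422% of a library) were left out. No column lacked a sample.

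Counts were tested with edgeR 4.0.16 in R 4.3.3: TMM within an assay, filterByExpr and two-sided quasi-likelihood tests (glmQLFit, glmQLFTest), with p-values adjusted by Benjamini-Hochberg over all genes and called under 0.05. The RNA model held genotype, and that for footprints added identifier length. TE was the interaction of assay and genotype in a model of all 16 libraries that also held assay, genotype and identifier length. Footprints were set against RNA in a model of assay and genotype. The SE was derived from the F statistic. The tests were checked on simulated counts with known changes and only random scatter between replicates. That check does not cover the replicate differences seen in these data. Alternatives were DESeq2 1.42.0, limma-voom and limma-trend (limma 3.58.1) on log2(TPM + 1) and log2(TPM + 0.5), other scaling, no filter and other covariates. Further alternatives were a replicate block (replicate number, or culture for TE and footprints against RNA), replicate subsets and leaving out each culture.

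The 8 genes, the pathway and marker lists and the tests were chosen with earlier results of these data known. Named pathway genes are, for each role, the 2 with the highest mean footprint CPM, the 1 with the smallest footprint p, and any gene past the threshold in RNA, footprints or TE. Prkag2, Fnip2, Foxo3 and Ddit4l are not named by that rule; they were picked after seeing their values. The result of 1 named gene is not reported here. Same-numbered WT and KO libraries are numbered in the sample titles. Their deviations from the group means correlated at 0.497 to 0.62 in RNA and 0.391 to 0.555 in footprints, so the numbers may pair the cultures. The main models, with their SEs, intervals and p-values, are unpaired. Pairing of WT with KO enters only through the replicate block in RNA and footprints. Some differently numbered libraries also exceeded 0.1 (up to 0.379 and 0.456). No 2 libraries held identical counts.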

Additional observations from a re-analysis of the deposited data

Results flagged for a closer look

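In 48 groups of 4 samples, 2 had an end value whose gap to its nearest neighbour took up more of the group's range than Dixon's 95% critical value allows, and chance alone flags about 1 in 20 groups. The log2 ratio of footprints to RNA of Rptor was -1.316 in KO replicate 2, against -1.90 in the next culture (gap over range 0.875). The footprint level of Rheb was 159.59 CPM in WT replicate 1, against 113 CPM in the next library (gap over range 0.952).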

How the results depend on the processing

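No alternative called any of the 8 genes in KO against WT. The replicate block used the replicate number in RNA and footprints, pairing same-numbered cultures, and the culture in TE, pairing its RNA and footprints. It called 0 of 8 in RNA, footprints and TE (lowest adjusted p 0.825, 0.9 and 1 in edgeR) and changed no call of the 8 genes. It narrowed errors, in RNA from an SE of 0.53 to 0.24 for Rictor and from 0.31 to 0.14 for Tsc1, and moved Rictor to -0.36 in RNA and 0.16 in TE. DESeq2 called 1 pathway gene in RNA and 1 in footprints, Rps6ka1 in each, against 0 in edgeR; over all genes it called 13 higher and 7 lower in RNA (edgeR 1 and 0) and 56 and 26 in footprints (edgeR 3 and 1), and limma-voom called 0 and 0 in RNA and 3 and 3 in footprints. For footprints against RNA, the alternatives called 6 or 7 of 8, and Rheb was 0.40 on both TPM scales against 1.17.

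Log2 fold changes near 0 changed sign under some settings, and the cause was not tested. With replicates 3 and 4 alone, Akt1 RNA was 0.029, and footprints were 0.014 for Tsc2, 0.10 for Rheb and -0.19 for Rps6kb1. On log2(TPM + 1) and log2(TPM + 0.5), Rheb footprints were 0.0035 and 0.0036, and Tsc2 TE was 0.0017 and 0.00054. Mtor TE was -0.0075 without a filter, and Rictor footprints against RNA were 0.012 with limma-voom.

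Each culture was left out in turn, which removed 1 library in RNA or footprints and both libraries of the culture in TE. This gave RNA ranges of -0.059 to 0.22 for Mtor, -0.15 to 0.12 for Akt1, -0.35 to 0.29 for Rps6kb1, -0.42 to 0.036 for Tsc1 and -0.11 to 0.0068 for Tsc2. In footprints they were -0.16 to 0.0040 for Tsc2, -0.065 to 0.11 for Rps6kb1, -0.12 to 0.13 for Rheb, -0.20 to 0.094 for Akt1 and -0.012 to 0.23 for Mtor. In TE they were -0.22 to 0.040 for Rptor, -0.32 to 0.14 for Tsc1, -0.14 to 0.10 for Tsc2, -0.27 to 0.40 for Rps6kb1, -0.13 to 0.21 for Mtor, -0.23 to 0.19 for Akt1 and -0.026 to 0.61 for Rictor. The genes not listed for a comparison kept their direction in it when any 1 culture was left out. Rictor RNA kept its sign but ranged from -0.84 to -0.11. WT RNA counts were low for Rictor (70 to 310 in a library) and Rps6kb1 (93 to 275), and the part of depth in their errors was not tested.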
